A study of Mus musculus with 16 samples.

Results

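The Wnt ligands, their Frizzled receptors and the genes that tune them were followed in a mouse inner medullary collecting duct cell line in which doxycycline (DOX) brings about loss of Pkd2. The set was defined by gene name, with earlier results of these data known. It holds every protein-coding gene called Wnt or Fzd with a number, the co-receptors Lrp5, Lrp6, Ror1 and Ror2, the polarity proteins Vangl1 and Vangl2, and the feedback genes Axin2, Nkd1, Rnf43, Znrf3, Lgr4 and Lgr5. These are 41 genes of the 55536 listed: 19 ligands, 10 Frizzled receptors, 6 co-receptors and polarity genes and 6 feedback genes. Of the 41, 25 had enough reads to be tested, among 15316 tested genes of the series.

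Wnts are secreted, lipid-modified proteins that bind Frizzled receptors on the same or a neighbouring cell. With Lrp5 or Lrp6 as partner, a Frizzled receptor stabilises beta-catenin, which acts with TCF and LEF factors on target genes. With Ror or Vangl proteins, it acts on cell shape and planar polarity without beta-catenin. Several targets feed back: Axin2 and Nkd1 dampen the signal inside the cell, Rnf43 and Znrf3 remove Frizzled receptors from the surface, and Lgr4 and Lgr5 bind R-spondins, which block that removal. In the developing kidney, Wnt9b and Wnt7b are made by the ureteric bud and the collecting duct, and Wnt7b is known for its part in the growth of the medulla.

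The 16 libraries form 4 groups of 4: passage 7 with DOX, passage 7 without DOX, passage 4 with DOX and passage 4 without DOX. Every culture stood for 10 days on permeable filters, and DOX, where given, was present at 2 ug/mL for 6 days. All 16 titles name the cells Pkd2KO, and the genotype label is wild type without DOX and induced knockout with it. No group received DOX without carrying the inducible allele, so DOX itself and the loss of Pkd2 cannot be told apart, and the cells are 1 line. No label says that the replicates are separate cultures, so p-values measure the spread between these libraries, which may be technical.

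Pkd2, which encodes the channel polycystin-2, lay at 47.6 to 65.9 CPM (counts scaled to a common library size) at passage 7 with DOX, against 184.0 to 187.4 CPM without. At passage 4 it lay at 47.8 to 57.4 CPM with DOX and at 135.2 to 144.9 CPM without. Totals were 9937504 to 17188295 counts per library. Of 17 collecting duct markers 13 were tested. Keratins 8, 18 and 19, Cdh1, Epcam and Hoxb7 were abundant, and the sodium channel gene Scnn1a averaged 151 CPM. The water channel gene Aqp2, which marks principal cells, had 0 counts in all 16 libraries and Aqp3 at most 6. Elf5 and Aqp4 had at most 1 and 2 counts, and Avpr2, Scnn1b and Scnn1g averaged 0.993, 1.62 and 1.15 CPM. Libraries of replicates 1 and 2 stood apart from those of replicates 3 and 4 in every group, with 36.9% of tested genes past the threshold between these pairs. A fit with the replicate number as a block is therefore given beside the main one where it changed a member's call, and for some others. Replicate 2 of passage 4 with DOX lay away from its group in several members, and members whose DOX call at passage 4 changed without it are named.

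Expressed and silent members differed by orders of magnitude. Levels per length, as RPKM (counts scaled by library size and by kilobases of exon, computed here), are means over the 16 libraries. Among ligands Wnt7b stood first with 114 RPKM, ahead of Wnt7a with 42.7, Wnt10a with 20.8 and Wnt4 with 10.9 RPKM. Wnt5b, Wnt9a and Wnt16 followed with 5.46, 4.95 and 3.61 RPKM, and Wnt5a, best known as a ligand of the polarity branch, had 0.492 RPKM. Wnt7b thus made up the larger part of the summed ligand level: 52.03 ± 0.554% at passage 7 with DOX and 58.93 ± 0.554% without, 54.93 ± 1.54% at passage 4 with DOX and 60.17 ± 0.409% without (SD, n = 4 each). In both passages the 4 libraries with DOX had a lower Wnt7b share than the 4 without.

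The 11 other ligands were below the filter on low counts: Wnt1, Wnt2, Wnt2b, Wnt3, Wnt3a, Wnt6, Wnt8a, Wnt8b, Wnt9b, Wnt10b and Wnt11. Wnt8a and Wnt8b had no count in any library, and 0 of 213607899 counts allows up to 0.014 CPM (3 counts of the total, counting error alone). The highest count of an untested member in any library was 20, for Wnt10b, whose 16 libraries summed to 97 counts. Wnt2b summed to 88 counts, Wnt11 to 39 and Wnt6 to 27. Wnt genes often lie in pairs, and here neighbours differed: Wnt10a on chromosome 1 had 10910 counts in all, against 27 for Wnt6, 6.2 kb away, and Wnt9a on chromosome 11 had 3572 counts, against 2 for Wnt3a, 16.2 kb away. The Wnt9b and Wnt3 pair, 24.3 kb apart, had 2 and 8 counts.

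Of the 10 Frizzled receptors 8 were tested. Fzd6 led with 18.9 RPKM, followed by Fzd1 with 13.9, Fzd7 with 11.3, Fzd4 with 9.09, Fzd5 with 5.16, Fzd8 with 5.01 and Fzd2 with 2.94 RPKM. Fzd3 had 0.128 RPKM, and Fzd9 and Fzd10 were not tested. Both canonical co-receptors were present, Lrp5 with 17.0 and Lrp6 with 10.9 RPKM, as were Vangl1 with 9.64 and Vangl2 with 3.50 RPKM. Ror1, a receptor tyrosine kinase that binds Wnt5a, had 0.154 RPKM, and Ror2 was below the filter with 105 counts over the 16 libraries. Among feedback genes Lgr4 led with 9.72 RPKM, ahead of Znrf3 with 2.85, Rnf43 with 1.75 and Axin2 with 0.269 RPKM. Nkd1 summed to 1 count and Lgr5 to 13.

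**Figure D1:**
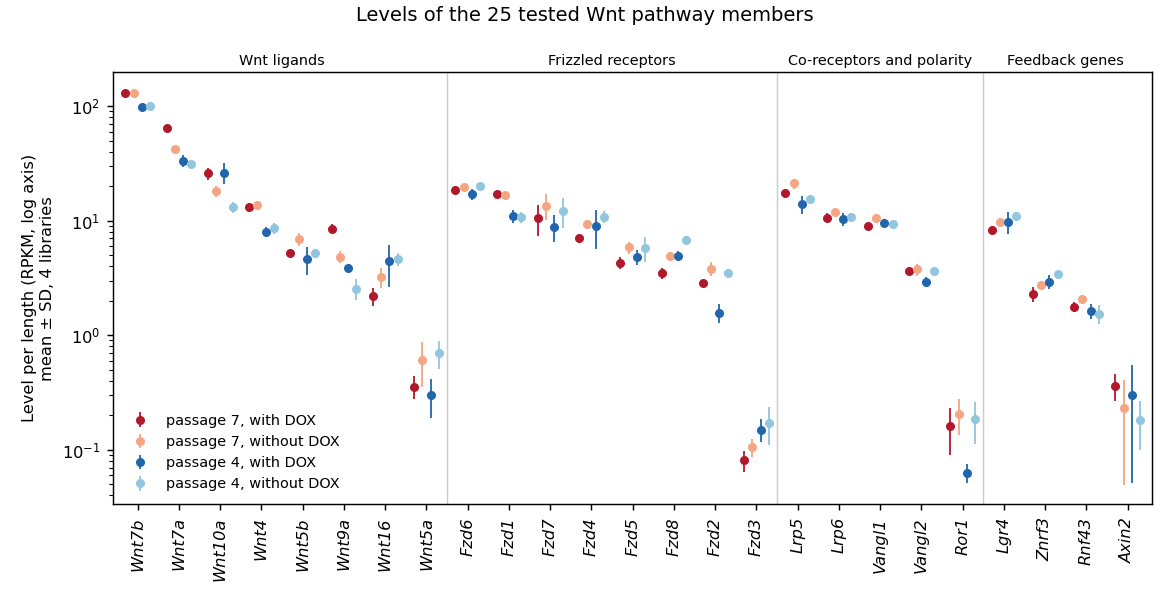
Level per length (RPKM, log axis) of the 25 tested members by role, ordered within a role by the mean of all 16 libraries; points are group means and bars are SDs over 4 libraries. Wnt7b lies above all other members, and Wnt5a, Fzd3, Ror1 and Axin2 lie below 1 RPKM.

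With DOX, 3 Wnt ligands stood higher and the changed receptors stood lower. At passage 7, 3 of the 25 tested members were higher and 5 lower with DOX (quasi-likelihood test of edgeR, adjusted p under 0.05 after Benjamini-Hochberg correction over all tested genes). Of all tested genes 11.1% were higher and 11.6% lower, and 22.6% were called in either direction. At passage 4, 2 members were higher and 6 lower, where 8.45% of all tested genes were higher, 9.10% lower and 17.5% called. The share of members higher was thus near that of all tested genes at both passages, and the share lower was larger. The median log2 fold change of the 25 was -0.25 at passage 7 and -0.16 at passage 4, and that of all tested genes was -0.01 and 0.00. By role, the ligands gave 3 higher and 1 lower of 8 at passage 7 and 2 higher and 1 lower at passage 4. None of the 8 Frizzled receptors, 5 co-receptor and polarity genes or 4 feedback genes was higher with DOX at either passage by this test. At the shares of all tested genes, few higher calls would fall among so few genes. Of the Frizzled receptors 3 were lower at each passage.

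The ligands that rose were Wnt10a, Wnt9a and Wnt7a. Wnt10a, a ligand of skin appendages and teeth that signals through beta-catenin, lies on chromosome 1 from 74791516 to 74804179 (GRCm38, plus strand; ENSMUSG00000026167). At passage 7 it had 73.8, 55.6, 64.5 and 61.01 CPM with DOX, against 37.7, 48.7, 47.9 and 43.5 CPM without (replicates 1 to 4 in order, here and below). At passage 4 it had 76.1, 44.9, 68.5 and 69.5 CPM with DOX and 27.4, 33.9, 32.5 and 35.1 CPM without. The groups did not overlap at either passage, and replicate 2 was the lowest of those with DOX both times. The log2 fold change was 0.52 ± 0.14 (SE) at passage 7, adjusted p = 0.0116, and 1.00 ± 0.14 at passage 4, adjusted p = 8.14e-05. The calls end when replicates 1 and 2 alone are fitted (0.58, adjusted p = 0.348 at passage 7; 0.96, adjusted p = 0.151 at passage 4). The difference of the responses was -0.48 ± 0.20, adjusted p = 0.332, and without replicate 2 of passage 4 with DOX it was -0.63, adjusted p = 0.041.

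Wnt9a, which acts in joint formation in mice, lies on chromosome 11 from 59306928 to 59333552 (plus strand; ENSMUSG00000000126). It had 26.6, 27.1, 32.3 and 27.8 CPM at passage 7 with DOX, against 15.8, 18.4, 16.5 and 13.8 CPM without. The passage 4 libraries had 11.8, 12.5, 14.1 and 13.2 CPM with DOX, against 10.8, 8.06, 6.53 and 8.60 CPM without. All libraries with DOX lay above all without at both passages, by a log2 fold change of 0.82 ± 0.12 at passage 7 (adjusted p = 5.81e-05) and 0.61 ± 0.13 at passage 4 (adjusted p = 0.00271). The passage 4 call ends with replicates 1 and 2 alone (0.38, adjusted p = 0.0745). The difference of the responses between passages was 0.21 ± 0.18, adjusted p = 0.733.

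Wnt7a is a close relative of Wnt7b, best known from limb patterning and the female reproductive tract. It lies on chromosome 6 from 91363981 to 91411363 (minus strand; ENSMUSG00000030093). At passage 7 it had 205, 217, 193 and 194 CPM with DOX, against 138, 139.7, 135 and 127 CPM without, and the groups lay far apart. In passage 4 cells it stood at 96.0, 93.2, 119 and 115 CPM with DOX and 108, 96.8, 93.1 and 97.8 CPM without, and the groups overlapped. This gave a log2 fold change of 0.58 ± 0.07 at passage 7, adjusted p = 1.31e-05, and 0.10 ± 0.07 at passage 4, adjusted p = 0.433. Of the 25 members Wnt7a was the 1 whose response to DOX differed between passages by the test of that difference, which called 0.516% of tested genes as higher and 0.679% as lower (1.87% and 2.79% with the replicate number as a block): 0.49 ± 0.10, adjusted p = 0.0253. Leaving out 1 of 4 libraries ended that call: replicate 2 of passage 7 with DOX (adjusted p = 0.054), replicate 4 of passage 7 without (0.066), replicate 1 of passage 4 with DOX (0.069) or replicate 1 of passage 4 without (0.062). At passage 4, replicates 3 and 4 with DOX were above all without and replicates 1 and 2 were not.

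Wnt7b, the most abundant ligand, gave no such difference. It lies on chromosome 15 from 85535437 to 85582473 (minus strand; ENSMUSG00000022382). At passage 7 it had 648, 629.8, 646 and 618 CPM with DOX and 624, 645, 654 and 612 CPM without. Passage 4 libraries held 487, 481, 489 and 474 CPM with DOX and 506, 491, 488 and 475 CPM without. The groups overlapped at both passages, with log2 fold changes of 0.00 ± 0.04 (adjusted p = 0.953) and -0.02 ± 0.04 (adjusted p = 0.79). The summed level of all ligands was 249.4 ± 6.13 RPKM at passage 7 with DOX and 219.5 ± 6.89 RPKM without, and 179.5 ± 5.88 RPKM at passage 4 with DOX and 166.2 ± 4.70 RPKM without (SD, n = 4 each).

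**Figure D2:**
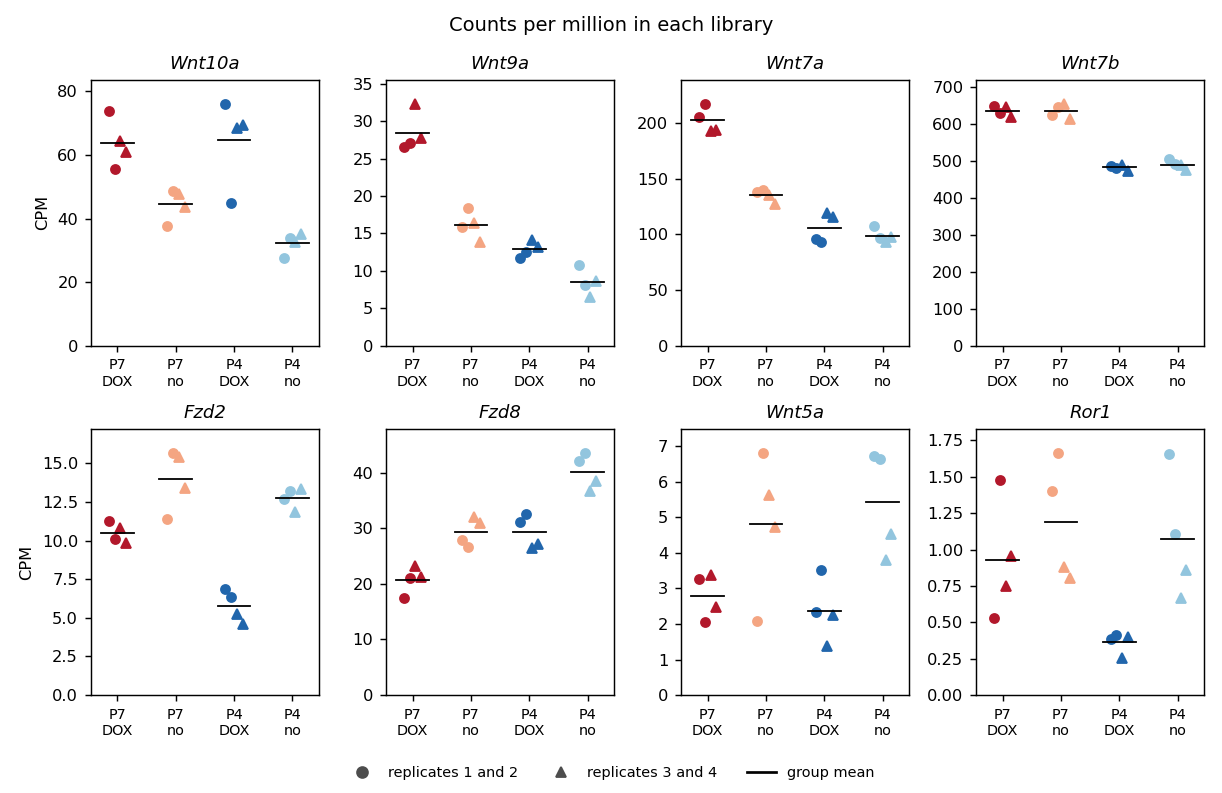
CPM of 8 members in each library, with passage 7 (P7) left of passage 4 (P4) and, within a passage, with DOX left of without; circles are replicates 1 and 2, triangles replicates 3 and 4, and lines group means. Wnt10a and Wnt9a lie higher with DOX at both passages and Wnt7a at passage 7, Fzd2 and Fzd8 lie lower, and Wnt7b differs between passages and not with DOX.

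The promoters of Wnt9a and Wnt7a are shown because these ligands rose with DOX, and that of Wnt5b because it was the 1 tested member with a TCF/LEF motif in a window. Each line gives the 250 bases before the annotated start, 5′ to 3′ on the gene's strand, from RefSeq (GRCm38.p6): chr11:59306680-59306929 on the plus strand for Wnt9a, chr6:91411354-91411603 on the minus strand for Wnt7a and chr6:119449387-119449636 on the minus strand, 1 of 3 annotated starts, for Wnt5b. Capitals mark the motif.
Wnt9a: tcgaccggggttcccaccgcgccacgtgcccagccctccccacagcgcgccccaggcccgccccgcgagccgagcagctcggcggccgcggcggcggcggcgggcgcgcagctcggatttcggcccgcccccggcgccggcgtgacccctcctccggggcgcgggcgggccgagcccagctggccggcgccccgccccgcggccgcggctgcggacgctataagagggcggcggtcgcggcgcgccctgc
Wnt7a: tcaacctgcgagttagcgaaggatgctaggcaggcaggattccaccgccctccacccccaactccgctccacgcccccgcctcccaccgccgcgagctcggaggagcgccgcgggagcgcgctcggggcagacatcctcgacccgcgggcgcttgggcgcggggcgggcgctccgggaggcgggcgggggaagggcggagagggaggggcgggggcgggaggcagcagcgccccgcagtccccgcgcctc
Wnt5b: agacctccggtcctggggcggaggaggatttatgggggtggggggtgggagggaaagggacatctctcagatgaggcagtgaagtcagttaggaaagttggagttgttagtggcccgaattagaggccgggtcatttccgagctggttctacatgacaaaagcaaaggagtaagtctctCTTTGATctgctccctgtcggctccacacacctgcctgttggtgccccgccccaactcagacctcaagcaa
The motif searched was CTTTGAA or CTTTGAT on both strands, and no other motif was searched. It was found in 7.48% of all 32851 windows of this length and in 2 of 32 windows of the 28 members that have one, 1 of Wnt5b, where it starts 71 bases before the annotated start printed here, and 1 of Wnt11. That start lies inside the Wnt5b gene, and the windows at its other annotated starts, the outermost included, held no match. The Wnt9a window was 84.4% G or C and the Wnt7a window 77.6%, against a median of 52.4% over all windows, and the Wnt5b window was 55.6%. A match is a description of letters and not a binding site. Windows of 14 tested members were at hand.

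The ligands that fell, Wnt5a and Wnt5b, were not among the 4 most abundant. Wnt5a had 3.26, 2.04, 3.37 and 2.48 CPM at passage 7 with DOX and 2.07, 6.80, 5.62 and 4.71 CPM without. Among passage 4 libraries it reached 2.33, 3.53, 1.38 and 2.25 CPM with DOX, against 6.72, 6.65, 3.79 and 4.53 CPM without. The groups overlapped at passage 7, through replicate 1 without DOX, and did not at passage 4. Its log2 fold change was -0.78 ± 0.32 at passage 7 (adjusted p = 0.0935) and -1.15 ± 0.33 at passage 4 (adjusted p = 0.0181). The passage 4 call is lost without replicate 3 with DOX (-0.97, adjusted p = 0.058), replicate 1 without DOX (-1.03, adjusted p = 0.058) or replicate 2 without DOX (-1.03, adjusted p = 0.059), and at passage 7 it is gained without replicate 1 without DOX (-1.04, adjusted p = 0.011).

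Wnt5b, the close relative of Wnt5a, had 14.9, 14.1, 13.5 and 12.5 CPM at passage 7 with DOX, against 17.0, 17.4, 17.1 and 21.8 CPM without. The groups did not overlap, and replicate 4 without DOX was the highest. The log2 fold change was -0.41 ± 0.15 and its adjusted p lay just under 0.05; without that replicate it was -0.32, adjusted p = 0.16, and leaving out any 1 of 13 of the 16 libraries ended the call. At passage 4 Wnt5b had 13.9, 15.9, 10.3 and 8.61 CPM with DOX and 15.3, 12.5, 13.98 and 13.2 CPM without, groups that overlapped (log2 fold change -0.16 ± 0.15, adjusted p = 0.529). Wnt4 and Wnt16 did not pass at either passage in the main fit, with log2 fold changes of -0.04 and -0.57 at passage 7 and -0.12 and -0.06 at passage 4. With the replicate number as a block Wnt16 passed at passage 7 (adjusted p = 0.0103).

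Fzd2 and Fzd8 were the Frizzled receptors lower with DOX at both passages. Fzd8 had 17.4, 21.1, 23.1 and 21.2 CPM at passage 7 with DOX, against 27.9, 26.6, 32.03 and 31.0 CPM without. Cells of passage 4 had 31.02, 32.6, 26.5 and 27.2 CPM with DOX, against 42.05, 43.5, 36.7 and 38.5 CPM without. Each library with DOX lay below each without at its passage, by log2 fold changes of -0.50 ± 0.10 (adjusted p = 0.000944) and -0.45 ± 0.09 (adjusted p = 0.00203), and both calls held in every alternative fitted. The responses of Fzd8 at the passages differed by -0.05 ± 0.14.

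Fzd2, on chromosome 11 from 102604396 to 102608058 (plus strand; ENSMUSG00000050288), had 11.3, 10.1, 10.8 and 9.84 CPM at passage 7 with DOX and 11.4, 15.7, 15.4 and 13.4 CPM without. At passage 4 it had 6.90, 6.35, 5.24 and 4.58 CPM with DOX, against 12.7, 13.2, 11.8 and 13.4 CPM without. The groups were separate at both passages, narrowly at passage 7, where replicate 1 without DOX stood next to replicate 1 with DOX. This gave a log2 fold change of -0.41 ± 0.12 at passage 7 (adjusted p = 0.0192) and -1.14 ± 0.13 at passage 4 (adjusted p = 4.88e-06). The passage 7 call is lost without replicate 4 with DOX (adjusted p = 0.058), replicate 2 without DOX (0.068) or replicate 3 without DOX (0.062). The difference of the responses was 0.72 ± 0.18, adjusted p = 0.0547, and passed with the replicate number as a block (adjusted p = 0.0158).

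Fzd6, the most abundant Frizzled receptor and one tied to planar polarity in mouse hair, had 90.1, 85.1, 89.97 and 93.6 CPM at passage 7 with DOX and 87.5, 96.2, 98.7 and 98.6 CPM without, groups that overlapped. The passage 4 libraries had 75.8, 72.5, 86.4 and 92.6 CPM with DOX, against 98.1, 94.02, 98.01 and 99.2 CPM without, with every library with DOX below. Its log2 fold change was -0.09 ± 0.07 at passage 7 (adjusted p = 0.419) and -0.25 ± 0.07 at passage 4 (adjusted p = 0.0141). The passage 4 adjusted p was 0.053 without replicate 1 with DOX and 0.000899 with the replicate number as a block. Fzd5 had 29.1, 25.3, 30.9 and 33.5 CPM at passage 7 with DOX, against 38.7, 34.2, 43.2 and 45.2 CPM without. These groups did not overlap, and in each the replicates 3 and 4 were the higher ones. The log2 fold change was -0.44 ± 0.15 (adjusted p = 0.0426); leaving out any 1 of 8 of the 16 libraries ended the call, with adjusted p up to 0.12, while the block gave 3.57e-05. At passage 4 Fzd5 had 29.5, 28.9, 34.5 and 39.6 CPM with DOX and 33.3, 32.7, 39.1 and 53.5 CPM without, with a log2 fold change of -0.26 ± 0.15, adjusted p = 0.258, and 0.0107 with the block.

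Fzd7 passed with the replicate number as a block and not in the main fit. At passage 7 it had 59.6, 61.7, 34.5 and 36.2 CPM with DOX and 78.1, 70.9, 46.6 and 49.9 CPM without. In passage 4 cells it stood at 48.9, 49.1, 29.1 and 33.1 CPM with DOX and 69.8, 68.5, 39.4 and 43.1 CPM without. Replicates 1 and 2 lay well above replicates 3 and 4 in all 4 groups, and within each pair the libraries with DOX were below those without at both passages. In the main fit, which holds no block, the log2 fold change was -0.36 ± 0.27 at passage 7 (adjusted p = 0.399) and -0.45 ± 0.28 at passage 4 (adjusted p = 0.309). With the replicate number as a block the fold changes were -0.37 and -0.45 and the adjusted p 1.61e-05 and 1.48e-06. Fzd7 is a receptor for beta-catenin signalling in many stem cells, and it lies on chromosome 1 from 59482424 to 59486955 (plus strand; ENSMUSG00000041075).

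The other Frizzled receptors did not pass in either passage. Fzd1 had log2 fold changes of 0.00 ± 0.09 and 0.02 ± 0.09 at passages 7 and 4, and Fzd3 of -0.34 ± 0.30 and -0.21 ± 0.26. Fzd4, the receptor of norrin in the retina, had -0.40 ± 0.18 and -0.26 ± 0.18. At passage 4 its libraries with DOX were 61.5, 91.8, 45.6 and 43.3 CPM, against 81.2, 78.3, 67.2 and 64.5 CPM without, and replicate 2 with DOX was the highest of all. Without that replicate Fzd4 passed at both passages (passage 7 -0.40, adjusted p = 0.0064, and passage 4 -0.54, adjusted p = 0.0018). With the replicate number as a block and all libraries it did not pass (adjusted p = 0.102 at passage 7 and 0.245 at passage 4). The summed level of the 8 tested and 2 untested Frizzled genes was 64.03 ± 3.05 RPKM at passage 7 with DOX and 74.33 ± 2.80 RPKM without. At passage 4 it was 57.26 ± 5.11 RPKM with DOX and 70.23 ± 5.31 RPKM without (SD, n = 4 each).

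**Figure D3:**
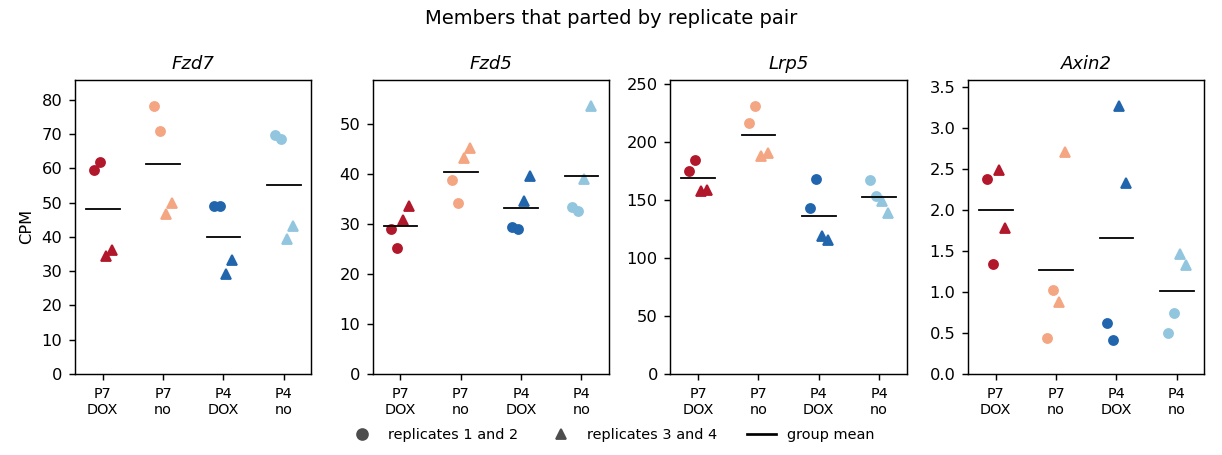
CPM of Fzd7, Fzd5, Lrp5 and Axin2 in each library, passage 7 (P7) left of passage 4 (P4) and with DOX left of without; circles are replicates 1 and 2, triangles replicates 3 and 4, and lines group means. The pairs lie apart within each group for Fzd7, and within a pair its libraries with DOX lie below those without.

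Among the co-receptors and polarity genes, those that passed with DOX were lower, Vangl1 at passage 7 and Vangl2 and Ror1 at passage 4. Lrp5, the most abundant of them, had 175, 184, 158 and 159 CPM at passage 7 with DOX, against 216, 230.3, 187 and 190.2 CPM without, with no overlap. Passage 4 libraries held 143, 168, 119 and 115 CPM with DOX and 167, 154, 149 and 138 CPM without, with replicate 2 with DOX above its group. This gave a log2 fold change of -0.29 ± 0.10 at passage 7 (adjusted p = 0.0568, and 0.00036 with the replicate block) and -0.16 ± 0.10 at passage 4 (adjusted p = 0.353, and 0.0294 with the block). Leaving out any 1 of 5 of the 16 libraries brought Lrp5 past the threshold at passage 7. At passage 4 it passed without replicate 2 with DOX (adjusted p = 0.049). Lrp6 had log2 fold changes of -0.17 ± 0.09 and -0.05 ± 0.09 at passages 7 and 4, and passed at passage 7 with the block (adjusted p = 0.00693).

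Vangl1 had 68.8, 63.9, 65.1 and 59.9 CPM at passage 7 with DOX, against 76.1, 72.1, 75.1 and 79.3 CPM without, a separate pair of groups with a log2 fold change of -0.23 ± 0.06 (adjusted p = 0.00727). Among passage 4 libraries it reached 74.4, 65.9, 70.3 and 63.9 CPM with DOX and 68.1, 66.8, 69.2 and 64.9 CPM without, groups that overlapped (0.03 ± 0.06, adjusted p = 0.8). The difference of the responses was -0.26 ± 0.08, with an adjusted p of 0.161 in the main fit and 0.042 with the block. Vangl2, a core planar polarity protein whose loss causes neural tube defects in mice, passed at passage 4 and not at passage 7. It had 27.4, 26.6, 23.1 and 24.4 CPM at passage 7 with DOX and 27.2, 30.1, 25.8 and 22.5 CPM without (-0.06 ± 0.09, adjusted p = 0.713). Cells of passage 4 had 21.6, 18.6, 19.2 and 22.8 CPM with DOX, against 27.4, 25.3, 25.8 and 23.3 CPM without, a log2 fold change of -0.31 ± 0.10 (adjusted p = 0.0291). The Vangl2 call was lost when any 1 of 5 libraries of that passage was left out, replicate 2 with DOX among them, with adjusted p up to 0.088. The difference of its responses did not pass (adjusted p = 0.502).

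Ror1 was near the lower limit of detection. It had 0.528, 1.48, 0.749 and 0.952 CPM at passage 7 with DOX and 1.40, 1.66, 0.883 and 0.802 CPM without, groups that overlapped. At passage 4 it had 0.388, 0.412, 0.258 and 0.402 CPM with DOX, against 1.66, 1.11, 0.666 and 0.860 CPM without, and these did not. Its log2 fold change was -0.36 ± 0.34 at passage 7 (adjusted p = 0.508) and -1.49 ± 0.43 at passage 4 (adjusted p = 0.0156). At passage 4 it was -1.22, adjusted p = 0.066, without replicate 1 without DOX. With the replicate number as a block the passage 4 adjusted p was 0.0037. Ror1 lies on chromosome 4 from 100095791 to 100444765 (plus strand; ENSMUSG00000035305).

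No feedback gene passed the main test at either passage, and the difference of responses passed for none of the 4. Lgr4, the most abundant, had 47.8, 51.6, 45.2 and 49.6 CPM at passage 7 with DOX and 59.4, 55.8, 56.6 and 58.98 CPM without. The passage 4 libraries had 58.4, 75.7, 48.8 and 47.5 CPM with DOX and 67.4, 71.5, 60.3 and 59.8 CPM without. All libraries with DOX lay below those without at passage 7; at passage 4 replicate 2 with DOX was the highest of the 8. The log2 fold change was -0.25 ± 0.11 (adjusted p = 0.129, 0.0353 with the block) and -0.16 ± 0.11 (adjusted p = 0.36), and without that replicate Lgr4 passed at both passages (passage 7 -0.25, adjusted p = 0.023; passage 4 -0.33, adjusted p = 0.0089). Znrf3 had 19.03, 21.1, 17.1 and 15.1 CPM at passage 7 with DOX and 23.1, 20.5, 19.9 and 22.5 CPM without, and 24.5, 25.5, 18.6 and 24.3 CPM at passage 4 with DOX, against 28.6, 26.2, 25.8 and 28.1 CPM without. Its log2 fold changes were -0.25 ± 0.11 (adjusted p = 0.112, 0.0434 with the block) and -0.22 ± 0.10 (adjusted p = 0.17), and the groups were apart at passage 4.

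Axin2, the target gene most often read as a gauge of beta-catenin signalling, was barely expressed. It had 2.38, 1.34, 2.50 and 1.78 CPM at passage 7 with DOX and 0.444, 1.03, 0.883 and 2.71 CPM without. In passage 4 cells it stood at 0.620, 0.412, 3.27 and 2.33 CPM with DOX and 0.498, 0.739, 1.47 and 1.33 CPM without. The groups overlapped at both passages, and replicates 3 and 4 with DOX at passage 4 were several times above replicates 1 and 2. Log2 fold changes were 0.72 ± 0.58 and 0.62 ± 0.61, adjusted p = 0.421 and 0.548. With replicates 3 and 4 alone Axin2 passed at passage 4 (0.99, adjusted p = 0.0493), where replicates 1 and 2 alone gave -0.30, adjusted p = 0.774. At passage 7 replicates 3 and 4 alone gave 0.32, adjusted p = 0.57, and replicates 1 and 2 alone 1.31, adjusted p = 0.0509. With the replicate number as a block Axin2 did not pass at either passage (adjusted p = 0.227 at passage 7 and 0.361 at passage 4). Rnf43 had log2 fold changes of -0.24 ± 0.13 and 0.08 ± 0.13.

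**Figure D4:**
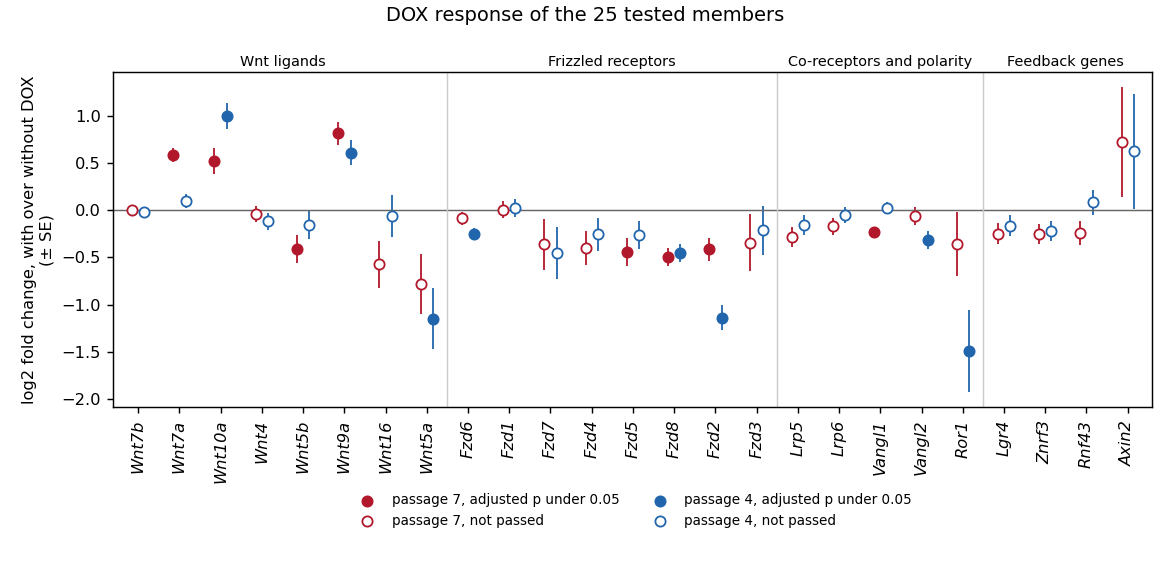
Log2 fold change (± SE), with DOX over without, of the 25 tested members at passage 7 and passage 4, by role; filled points passed the test and open points did not. Filled points above 0 are ligands, and all filled receptor and co-receptor points lie below 0.

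Averaged over both passages, 3 members were higher and 10 lower with DOX, where 15.7% of tested genes were higher and 16.6% lower. The higher were Wnt7a, Wnt9a and Wnt10a. The lower were Wnt5a, Wnt5b, Fzd2, Fzd5, Fzd6, Fzd8, Lrp5, Ror1, Vangl2 and Znrf3, which encodes a ubiquitin ligase that removes Frizzled receptors (log2 fold change -0.24 ± 0.08, adjusted p = 0.0226). Leaving out 1 library ended the averaged call of Wnt5b for any of 10 libraries, of Vangl2 for any of 9, of Lrp5 for any of 7 and of Znrf3 for 1, replicate 4 of passage 7 with DOX (adjusted p = 0.055). With the replicate number as a block, 16 members were lower and 3 higher, where 21.7% and 20.2% of tested genes were. Those added were Wnt16, Fzd4, Fzd7, Lrp6, Vangl1 and Lgr4. The same block gave 11 lower and 3 higher members at passage 7 (16.5% and 15.3% of tested genes) and 9 lower and 2 higher at passage 4 (14.0% and 13.3%).

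The passages differed in ligands as well as receptors. Both are of 1 line, so passage number and anything else that differed between their cultures cannot be told apart. Without DOX, 10 of the 25 members were higher at passage 7 than at passage 4 and 2 were lower, where 14.3% of tested genes were higher and 11.3% lower. With DOX, 9 were higher and 4 lower, where 18.3% and 15.8% were. The median of the 25 was 0.16 in both comparisons, and that of all tested genes -0.01. Of the 8 ligands 6 were higher without DOX, with a median of 0.43, and 4 were higher and 1 lower with DOX, with a median of 0.29. With the replicate block, 12 members were higher and 4 lower without DOX, where 19.6% and 17.4% of tested genes were, and 11 were higher and 5 lower with DOX, where 23.2% and 21.6% were. The calls added by the block without DOX were Fzd7 and Lrp6 among the higher and Wnt16 and Fzd3 among the lower, and with DOX Fzd6 and Fzd7 among the higher and Lgr4 among the lower.

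Wnt4, Wnt7a, Wnt7b and Wnt9a were higher at passage 7 in both comparisons. Wnt4, which drives the mesenchyme to form nephrons in the mouse kidney, had 54.5, 49.6, 56.7 and 61.2 CPM at passage 7 and 31.9, 37.8, 33.4 and 30.1 CPM at passage 4 with DOX. Without DOX it had 52.4, 54.4, 61.4 and 60.5 CPM at passage 7 and 35.8, 36.7, 40.6 and 31.3 CPM at passage 4. No passage 7 library lay below a passage 4 library, and the log2 fold changes were 0.73 ± 0.09 with DOX and 0.66 ± 0.09 without (adjusted p = 6.18e-06 and 3.56e-05). Wnt7b, with the values given above, was higher by 0.40 ± 0.04 with DOX and 0.37 ± 0.04 without (adjusted p = 1e-06 and 4.27e-06). For Wnt9a the log2 fold changes were 1.14 ± 0.12 and 0.94 ± 0.13, and for Wnt7a 0.94 ± 0.07 and 0.45 ± 0.07 (all adjusted p at most 0.000252). Wnt10a and Wnt5b passed without DOX (0.46, adjusted p = 0.0241; 0.41, adjusted p = 0.0462), with Wnt10a losing the call without any 1 of 3 libraries and Wnt5b without any 1 of 11. Wnt16 was lower at passage 7 with DOX, by a log2 fold change of -1.03 ± 0.24 (adjusted p = 0.00352), and passed without DOX with the block (0.00618).

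Among receptors, Fzd1 was higher and Fzd8 lower at passage 7 in both comparisons, and Fzd7 was higher in both with the replicate number as a block (0.25 with DOX and 0.16 without, adjusted p = 0.000898 and 0.023; 0.531 and 0.719 in the main fit). Fzd1 had 76.4, 71.2, 70.9 and 65.9 CPM at passage 7 and 51.02, 51.5, 40.3 and 40.9 CPM at passage 4 with DOX. Without DOX it had 72.9, 74.9, 63.4 and 72.2 CPM at passage 7 and 50.4, 48.8, 41.5 and 40.3 CPM at passage 4, and the groups were apart both times (0.63 ± 0.09 and 0.65 ± 0.09; adjusted p = 4.51e-05 and 5.92e-05). Fzd8 had log2 fold changes of -0.50 ± 0.10 with DOX and -0.45 ± 0.09 without (adjusted p = 0.000586 and 0.00175), so it was lowest at passage 7 with DOX. Fzd2 was higher at passage 7 with DOX (0.85 ± 0.13, adjusted p = 6.87e-05), and did not pass without (0.13 ± 0.12, adjusted p = 0.474); the test of that difference is the one given above. Fzd3 was lower with DOX (-0.85 ± 0.28, adjusted p = 0.0255), a call that ended without any 1 of 4 libraries.

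Lrp5 was higher at passage 7 by 0.31 ± 0.10 with DOX and 0.44 ± 0.10 without (adjusted p = 0.0304 and 0.00521). The call with DOX ended without replicate 1 (0.067) or 2 (0.085) of passage 7, without replicate 3 (0.091) or 4 (0.096) of passage 4, and with no filter on low counts (0.089). Ror1 and Vangl2 were higher with DOX, by 1.32 ± 0.44 and 0.31 ± 0.10 (adjusted p = 0.0193 and 0.0184); the Ror1 call ended without replicate 2 of passage 7 (0.079), and the Vangl2 call without replicate 1 of passage 7 (0.054) or replicate 2 of passage 4 (0.062). Vangl1 passed without DOX (0.17 ± 0.06, adjusted p = 0.0409) and lost the call without any 1 of 7 libraries. Of the feedback genes Znrf3 was lower at passage 7 in both comparisons, with log2 fold changes of -0.37 ± 0.11 with DOX and -0.34 ± 0.11 without (adjusted p = 0.013 and 0.0255; lost without replicate 4 of passage 7 with DOX and without any 1 of 4 libraries without DOX). Rnf43, the other ubiquitin ligase, had 14.9, 13.4, 13.3 and 12.6 CPM at passage 7 without DOX, against 8.62, 12.8, 8.99 and 9.92 CPM at passage 4, with replicate 2 of passage 4 inside the passage 7 range. It was higher by 0.43 ± 0.13 (adjusted p = 0.0219), a call lost without any 1 of 3 libraries.

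**Figure D5:**
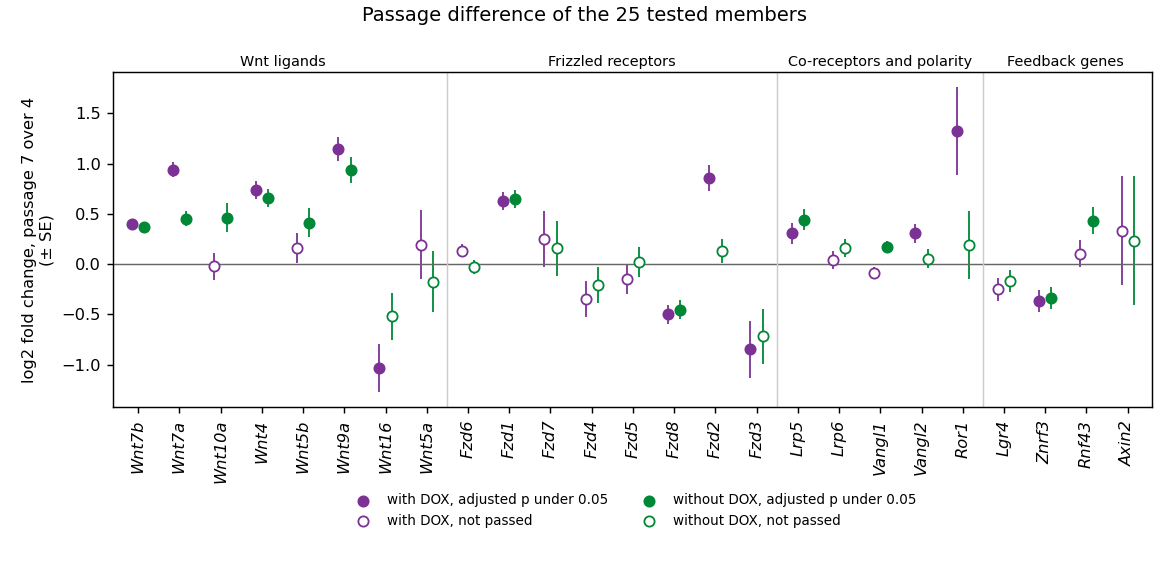
Log2 fold change (± SE), passage 7 over passage 4, of the 25 tested members with DOX and without DOX, by role; filled points passed the test and open points did not. Most filled ligand points lie above 0, and Wnt16, Fzd3, Fzd8 and Znrf3 hold the filled points below 0.

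The pairs of replicates left their own mark on the members. Replicates 3 and 4 against 1 and 2, over all groups, gave 3 higher and 9 lower of the 25 members (48.0% called), where 17.5% of tested genes were higher and 19.5% lower (36.9% called). The log2 difference was 1.15 for Axin2 (adjusted p = 0.0035), -0.70 for Fzd7 (1.7e-12), -0.62 for Ror1 (0.038), -0.51 for Wnt16 (0.00061), -0.31 for Fzd4 (0.044) and 0.34 for Fzd5 (6.3e-05). No label says what the pairs are. For Wnt7a at passage 7, the log2 fold change with DOX was 0.56, adjusted p = 2.68e-10 in replicates 3 and 4 and 0.61, adjusted p = 3.06e-07 in replicates 1 and 2. At passage 4 the pairs lay on opposite sides of 0, with 0.29, adjusted p = 0.000183 in replicates 3 and 4 and -0.11, adjusted p = 0.241 in replicates 1 and 2. The difference of the Wnt7a responses between passages was 0.26, adjusted p = 0.0599 in replicates 3 and 4, where the call was lost, and 0.72, adjusted p = 3.98e-05 in replicates 1 and 2.

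The genes around the members were read list by list with DOX, and means here are ± SD over 4 libraries. Their shares called stand against 22.6% of all tested genes at passage 7 and 17.5% at passage 4. For the inhibitors they were 66.7% and 50%, for the secretion factors and R-spondin genes 75.0% and 25% (no R-spondin gene was tested), and for the cytoplasmic machinery 21.1% and 26.3%. For TCF and cofactor genes they were 20.0% and 13.3%, for beta-catenin targets 23.1% and 53.8%, and for the polarity and calcium branch 30.0% and 15%. Secreted and membrane inhibitors of Wnts gave no gene higher and 4 of 6 tested lower at passage 7, and none higher and 3 lower at passage 4 (19 listed; median log2 fold change -0.88 and -0.41). Sostdc1, an inhibitor that binds Lrp6, was at 0.205 ± 0.188 CPM at passage 7 with DOX and 2.71 ± 1.18 CPM without, and at 4.04 ± 2.89 CPM at passage 4 with DOX and 11.9 ± 2.47 CPM without (adjusted p = 0.00161 and 0.0104). Trabd2b, a protease that cleaves Wnts, was at 3.82 ± 0.986 CPM and 10.7 ± 1.85 CPM at passage 7 with and without DOX, and at 14.6 ± 0.753 CPM and 23.1 ± 4.78 CPM at passage 4 (adjusted p = 8.82e-06 and 0.00463). Kremen1, a receptor of Dickkopf proteins, fell by less (-0.32 and -0.28), and Dkk3 passed at passage 7 (-1.43, adjusted p = 0.0184, lost without any 1 of 3 libraries).

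Of the secretion factors and R-spondin genes 4 of 10 were tested, with 2 higher and 1 lower at passage 7 and 1 lower at passage 4. None of those tested was an R-spondin gene: Rspo1, Rspo3 and Rspo4 had at most 0.100 CPM in any library, and Rspo2 had 0. Lgr6, an R-spondin receptor, fell at both passages (-0.93 ± 0.16 and -0.78 ± 0.17; adjusted p = 0.00039 and 0.0029). Porcn, which attaches the lipid to Wnts, and Wls, which carries them to the surface, passed at passage 7 (0.44, adjusted p = 0.0478; 0.17, adjusted p = 0.0397), and lost the call without any 1 of 10 and of 6 libraries. Among 19 tested genes of the cytoplasmic beta-catenin machinery (22 listed), 2 were higher and 2 lower at passage 7 and 3 higher and 2 lower at passage 4, with medians of -0.04 and -0.01. Csnk1a1, the kinase that primes beta-catenin for removal, rose by 0.37 and 0.29 (adjusted p = 1.27e-05 and 0.000217). Ctnnb1, which encodes beta-catenin, was higher at passage 4 (0.26, adjusted p = 0.000641) and had 0.13 at passage 7 (adjusted p = 0.0571).

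Of the 15 tested TCF and cofactor genes (18 listed), 3 were higher at passage 7 and 2 at passage 4, and none was lower. Tcf7, a TCF factor and itself a target, was at 27.8 ± 1.59 CPM at passage 7 with DOX and 16.9 ± 1.82 CPM without, and at 17.4 ± 4.15 CPM at passage 4 with DOX and 10.3 ± 2.21 CPM without (adjusted p = 0.00275 and 0.00443). Ctbp1, a co-repressor, rose by 0.30 and 0.42. Of 13 tested beta-catenin target genes (24 listed), 2 were higher and 1 lower at passage 7 and 4 higher and 3 lower at passage 4. Ccnd1, encoding cyclin D1, was at 1087 ± 57.3 CPM at passage 7 with DOX and 930.1 ± 82.2 CPM without (adjusted p = 0.034, lost without any 1 of 5 libraries) and at 1318 ± 127 CPM at passage 4 with DOX and 1004 ± 67.8 CPM without (adjusted p = 0.000898). The matrix protease gene Mmp7 fell to 60.3 ± 10.4 CPM at passage 7 with DOX, against 117 ± 2.52 CPM without (adjusted p = 1.01e-06). At passage 4 it was at 359 ± 30.9 CPM with DOX and 435 ± 37.4 CPM without (adjusted p = 0.0449, 0.0536 with the block, lost without any 1 of 11 libraries). Its responses differed between passages by -0.68 ± 0.13 (adjusted p = 0.013; -0.78, adjusted p = 0.164 in replicates 1 and 2 alone). The 20 tested polarity and calcium branch genes (25 listed) gave 3 higher and 3 lower at passage 7 and 2 higher and 1 lower at passage 4, among them the Wnt receptor gene Ryk (0.18 and 0.20; adjusted p = 0.0315 and 0.0183, lost without any 1 of 5 libraries at passage 7 and without replicate 3 with DOX at passage 4).

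Some marker lists of other cells moved with the groups. Their calls stand against 22.6% of all tested genes called with DOX at passage 7 and 17.5% at passage 4. Between passages, 18.3% of tested genes were higher and 15.8% lower at passage 7 with DOX, and 14.3% and 11.3% without. Of 6 leukocyte genes 3 were tested (Csf1r, Cd68 and Ptprc), and the list summed to 36.1 to 43.7 CPM at passage 7 with DOX and 67.1 to 75.2 CPM without, and to 20.1 to 35.5 CPM at passage 4 with DOX and 39.0 to 46.9 CPM without; Adgre1 and Itgam were at 0. All 3 tested were lower with DOX at both passages. Between passages Csf1r and Cd68 were higher at passage 7 and Ptprc was lower, with and without DOX. Ptprc was at 0 to 0.127 CPM at passage 7 with DOX and 0.444 to 1.69 CPM without, and at 0.724 to 1.35 CPM at passage 4 with DOX and 2.49 to 4.53 CPM without. The stromal list summed to 3.75 to 6.69 CPM at passage 7 with DOX, 2.81 to 4.11 CPM at passage 7 without, 1.29 to 2.00 CPM at passage 4 with DOX and 0.932 to 1.33 CPM at passage 4 without, with Col3a1 and Lum at 0. Of its 8 genes 2 were tested, Dcn and Col1a1. Dcn was higher with DOX (1.15 at passage 7 and 1.52 at passage 4). Col1a1 did not pass (-0.31 and -0.09). Both were higher at passage 7 than at passage 4, with and without DOX. The intercalated cell list summed to 6.05 to 7.31 CPM at passage 7 with DOX, 7.39 to 12.1 CPM at passage 7 without, 14.2 to 30.0 CPM at passage 4 with DOX and 17.2 to 25.9 CPM at passage 4 without, with Atp6v1g3 and Aqp6 at 0. Of its 7 genes 2 were tested, Atp6v0d2 and Insrr, and both were lower at passage 7 with and without DOX, the Insrr calls ending without any 1 of 5 and of 4 libraries. The loop and distal tubule list summed to 4.87 to 5.55 CPM at passage 7 with DOX and 5.93 to 8.13 CPM without. Its 1 tested gene, Trpm6, was lower with DOX at passage 7 and higher at passage 7 than at passage 4, with and without DOX. The proximal tubule list summed to 9.28 to 11.4 CPM at passage 4 with DOX and 12.3 to 12.7 CPM without, and overlapped at passage 7. Of its 2 tested genes 1 was lower with DOX at passage 4. The collecting duct list itself summed to 5460 to 5970 CPM at passage 7 with DOX and 6290 to 6900 CPM without, and to 4510 to 4710 CPM at passage 4 with DOX and 5620 to 5750 CPM without. Its 13 tested genes did not all follow that sum: with DOX 1 was higher and 4 lower at passage 7 (38.5% called), and 2 higher and 2 lower at passage 4 (30.8%). Krt8 was lower (1749 ± 66.5 CPM with DOX and 2233 ± 162 CPM without at passage 7, 1219 ± 60.1 CPM with DOX and 1930.0 ± 47.2 CPM without at passage 4), while Scnn1a, a sodium channel subunit, was higher by 0.35 and 0.40 (adjusted p = 0.0295 and 0.0184, lost without any 1 of 4 and of 3 libraries). The other subunits of that channel were low and did not rise. Scnn1b lay at 0.264 to 0.571 CPM at passage 7 with DOX and 0.301 to 1.12 CPM without. At passage 4 it lay at 1.29 to 3.41 CPM with DOX and 3.03 to 3.82 CPM without. Scnn1g lay at 0.317 to 0.634 CPM at passage 7 with DOX and 0.301 to 1.33 CPM without. At passage 4 it lay at 0.402 to 2.00 CPM with DOX and 1.33 to 2.73 CPM without. Between passages 5 were higher and 4 lower at passage 7, both with DOX and without (69.2% called each time). The part of these in the results on Wnt members was not tested. In these bulk libraries, fewer cells of a type and less RNA per cell cannot be told apart.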

How the data were processed

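Poly(A) RNA of 16 libraries was sequenced as 2 reads of 75 bp per fragment from a strand-marking kit, per the labels' protocols, and aligned with STAR 2.6.0c to GRCm38.p6, per the submitters' processing notes. The authors deposited raw counts per gene (9937504 to 17188295 per library) and TPM values. The counting tool, annotation release and strand setting are not given in the sources used here. Reads of a gene and of an antisense partner may therefore not have been separated. In the deposited TPM table, 4 of 16 headers best fit the equally named count column, and 12 fit a column from a different group (over 12577 genes, correlation 1.000 at best and 0.873 or less for any other column). Pkd2 fits the labels of the count headers, and no TPM value is used as a result.

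All results rest on the counts. Genes were kept by filterByExpr (15316 of 55536; minimum count 10), scaled by TMM and tested by the robust quasi-likelihood method of edgeR 4.0.16 (R 4.3.3, limma 3.58.1) in 1 model of 4 group means for all 16 libraries, with 12 residual degrees of freedom. Benjamini-Hochberg adjustment covered every tested gene, with a threshold of 0.05. Standard errors come from the fitted information and the moderated quasi-dispersion. CPM are TMM-scaled, and RPKM use the exon union length. Contrasts were DOX at each passage, their mean and difference, and passage with and without DOX. Alternatives were DESeq2 1.42.0, RLE scaling, no filter, the compared libraries alone, the replicate block, the replicate pair as a term, each pair alone, and leaving out each library. The steps were tested on simulated data with 200 genes changed at passage 4 with DOX. Of these, 26% were recovered at 1.25-fold, 66% at 1.5-fold, 86% at 2-fold and 98% at 4-fold, and 10 of 148 calls were false. Small changes can thus go uncalled.

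The members and lists were chosen with earlier results of these data known. Values per library are given for members past the threshold with DOX at either passage or between passages without DOX and for the highest of each role; Fzd7, Fzd4 and Axin2 were added after their values were seen. In the other lists, the tested genes named are among the 4 with the smallest adjusted p past the threshold in a comparison. Individual cell type markers were named after their values were seen. No paired samples are stated in the labels, so the main fit holds no pairing, and the replicate block is an alternative. Same-numbered libraries deviated together (correlations 0.175 to 0.369). Libraries of different numbers in the same pair of replicates did so as well (0.185 to 0.387), and those across pairs did not (-0.342 to -0.18). No 2 replicates agreed within sampling noise (chi-square per degree of freedom 1.87 to 4.65 within a pair, 10.4 or more across pairs).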

Additional observations from a re-analysis of the deposited data

Results flagged for a closer look

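Of 100 sets of 4 libraries (25 members in 4 groups), 2 held a library that stood far from the other 3 by Dixon's criterion, where chance gives about 5% of sets. That rate is for independent, normally distributed values. These libraries parted by replicate pair, so the rate is only a rough guide here. Wnt5b was at 21.8 CPM in replicate 4 of passage 7 without DOX, against 17.0, 17.4 and 17.1 CPM in replicates 1 to 3. Ror1 was at 0.258 CPM in replicate 3 of passage 4 with DOX, against 0.388, 0.412 and 0.402 CPM in replicates 1, 2 and 4. The response of Wnt7a to DOX differed between passages by the interaction term of edgeR's quasi-likelihood fit, by 0.49 on the log2 scale (adjusted p = 0.0253), higher at passage 7.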

How the results depend on the processing

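No member's called change turned its sign in any alternative. Calls of the main fit that held in every alternative were 3 of 8 for DOX at passage 7 (Wnt7a, Wnt9a and Fzd8), 2 of 8 at passage 4 (Fzd2 and Fzd8), 6 of 13 averaged over passages, 7 of 12 for passage without DOX and 8 of 13 with DOX; the interaction of Wnt7a, the 1 such call, did not. With the replicate block, and equally with the replicate pair as a term, lower members were 11 for DOX at passage 7 (5 in the main fit), 16 averaged (10) and 4 for passage without DOX (2), and the difference of responses gave 2 higher (1) and 1 lower (0); the block moved no other count by more than 1.5 times. The calls it changed at single passages are given beside the genes. The compared libraries alone gave 9 lower at passage 7. Replicates 1 and 2 alone gave 0 higher at passage 4 (2 in the main fit) and, for passage without DOX, 6 higher (10) and 4 lower (2). Replicates 3 and 4 alone gave 4 higher at passage 4, 13 lower at passage 7 and 1 lower for the difference (Wnt10a). DESeq2 and no filter each gave 2 higher for the difference. The share of all tested genes called is given here for the main fit and the replicate block alone. Counts under the other alternatives, leaving out a library included, are therefore not read as a result about the members. Causes were not tested. Leaving out 1 library gave 3 to 4 higher and 3 to 9 lower members for DOX at passage 7, 2 in each case and 3 to 8 at passage 4, 3 to 4 and 6 to 12 averaged, 0 to 2 and 0 to 1 for the difference, 7 to 10 and 1 to 3 for passage without DOX, and 7 to 10 and 3 to 5 with DOX. The 3 lower at passage 4 came without replicate 1 without DOX, the 9 lower at passage 7 without replicate 2 of passage 4 with DOX, and the 6 averaged without replicate 4 of passage 7 with DOX. The 3 lower at passage 7 came without replicate 1, 3 or 4 of passage 7 with DOX, replicate 2, 3 or 4 of passage 7 without, or replicate 3 of passage 4 without. The 1 lower for passage without DOX came without replicate 2 or 3 of passage 7 or replicate 1 of passage 4. At 0.128 to 0.492 RPKM, Fzd3, Ror1, Axin2 and Wnt5a had SEs of 0.26 to 0.61 with DOX, which hold counting error and the spread between libraries together.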

Other observations

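Wnt10b was below the filter on low counts and has no test in the main fit. Its raw counts were 15, 20, 13 and 7 at passage 7 with DOX, against 4, 4, 1 and 3 without. Without the filter it was higher with DOX at passage 7 in edgeR's quasi-likelihood test (log2 fold change 1.96, adjusted p = 0.00869). At passage 4 the counts were 4, 2, 7 and 5 with DOX and 1, 7, 3 and 1 without, groups that overlapped (0.58, adjusted p = 0.681). The gene was chosen after its counts were seen.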
